A study of Mus musculus with 10 samples.

Results

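The 9 genes described here encode enzymes of 2 silencing systems of chromatin. *Dnmt1*, *Dnmt3a*, *Dnmt3b*, *Uhrf1*, *Tet1*, *Tet2* and *Tet3* place, keep or remove DNA methylation, and *Ezh1* and *Ezh2* encode the catalytic subunits of Polycomb repressive complex 2 (PRC2). They were chosen by name and function, by a rule that uses no measured value but was set with earlier results of these data known, and all 9 were among the 14300 genes of the count table. mRNA was sequenced from cells of the embryonic mouse brain sorted by a *Grem1* reporter, and the comparison asked how the cells that had switched the reporter on differ from the other cells of the same tissue. The embryos had a C57BL6/J background and carried *Grem1creERT* and *Rosa26LSLTdtomato*, in which a tamoxifen-activated Cre driven by *Grem1* regulatory sequences turns on TdTomato permanently. Pregnant females received tamoxifen 24 h before collection of the embryos at 14.5 days post coitum (dpc), and the dorsal telencephalon was dissected free of meninges. Live TdTomato+ and TdTomato− cells were sorted from 5 mice, numbered 2 to 6, which gave 10 libraries, 5 of each population. Both populations of a mouse carried the same alleles and had the same treatment. The TdTomato+ population holds cells with a history of Cre activity, either their own or inherited from a parent cell, while TdTomato− cells are all other live cells of the tissue, including any *Grem1* cell in which no recombination took place.

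The libraries held 23429034 to 27286180 counts, so depth was similar throughout. Values are given as CPM, the counts of a gene relative to the size of its library, after TMM scaling, a normalisation that removes a shift shared by most genes, and 3 counts correspond to 0.104 to 0.136 CPM. *Grem1* itself stood at 5.0 to 7.0 CPM in TdTomato− and 60.7 to 68.4 CPM in TdTomato+ libraries, in the direction that the labels give. All 7 genes of the list for deep-layer neurons, of which *Neurod2*, *Neurod6* and *Slc17a7* mark cortical glutamatergic neurons more widely, were higher in TdTomato+ cells (summed level 7008 to 8395 CPM against 1792 to 2555 CPM), and all 8 radial glia markers were lower (128 to 176 CPM against 1572 to 1848 CPM). TdTomato− libraries also held more interneuron transcripts, with 6 of 6 markers lower in TdTomato+ cells (41.1 to 62.02 CPM against 1256 to 1638 CPM), and all measured markers of intermediate progenitors (4), Cajal-Retzius cells (5), microglia (5), erythroid cells (5), pericytes (3) and the oligodendrocyte lineage (3) were lower in TdTomato+ cells as well. Endothelial and meningeal transcripts were scarce in both populations, at a summed level of 3.62 and 5.29 CPM at most, with 2 markers of each measured, of which 1 was lower and 1 not called. In these lists 2 microglial markers, and no other, were at or under 3 counts in every TdTomato+ library. The part of these cells in the results below was not tested. In bulk samples, fewer cells of a type and less RNA per cell cannot be told apart.

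DNA methylation of CpG sites is copied onto the new strand after replication by DNMT1, which UHRF1 recruits to hemimethylated DNA. DNMT3A and DNMT3B place methylation at unmethylated sites, and DNMT3A is the main de novo enzyme of maturing neurons. The TET enzymes oxidise 5-methylcytosine to 5-hydroxymethylcytosine, a base that is abundant in neurons. PRC2 methylates lysine 27 of histone H3, with either EZH2, typical of dividing cells, or EZH1, typical of cells that have left the cell cycle, as its catalytic subunit, and in the cortex it restrains the switch of progenitors from one fate to the next.

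Of the 9 genes, *Ezh1* was higher in TdTomato+ cells, *Uhrf1*, *Dnmt3a*, *Dnmt1*, *Ezh2*, *Dnmt3b* and *Tet1* were lower, and *Tet2* and *Tet3* did not pass the test (edgeR quasi-likelihood test with the mouse as a block, Benjamini-Hochberg adjusted p of 0.05 or less). The 2 populations differed widely, so these counts have to be read against all genes. Across the 14300 genes, 77.3% passed in either direction, 37.9% were higher and 39.4% were lower in TdTomato+ cells. The number of members that passed, 7 of 9, was therefore close to the background, and the result lies in which genes moved and by how much. Only *Uhrf1* of the 9 fell by at least 2 on the log2 scale, which 9.74% of all genes did. The median log2 fold change of the members was −0.63, and that of all genes was −0.01. In 5 members the TdTomato+ and TdTomato− libraries did not overlap (*Uhrf1*, *Dnmt1*, *Dnmt3a*, *Ezh2* and *Ezh1*), as was the case for 61.6% of all genes.

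**Figure D1:**
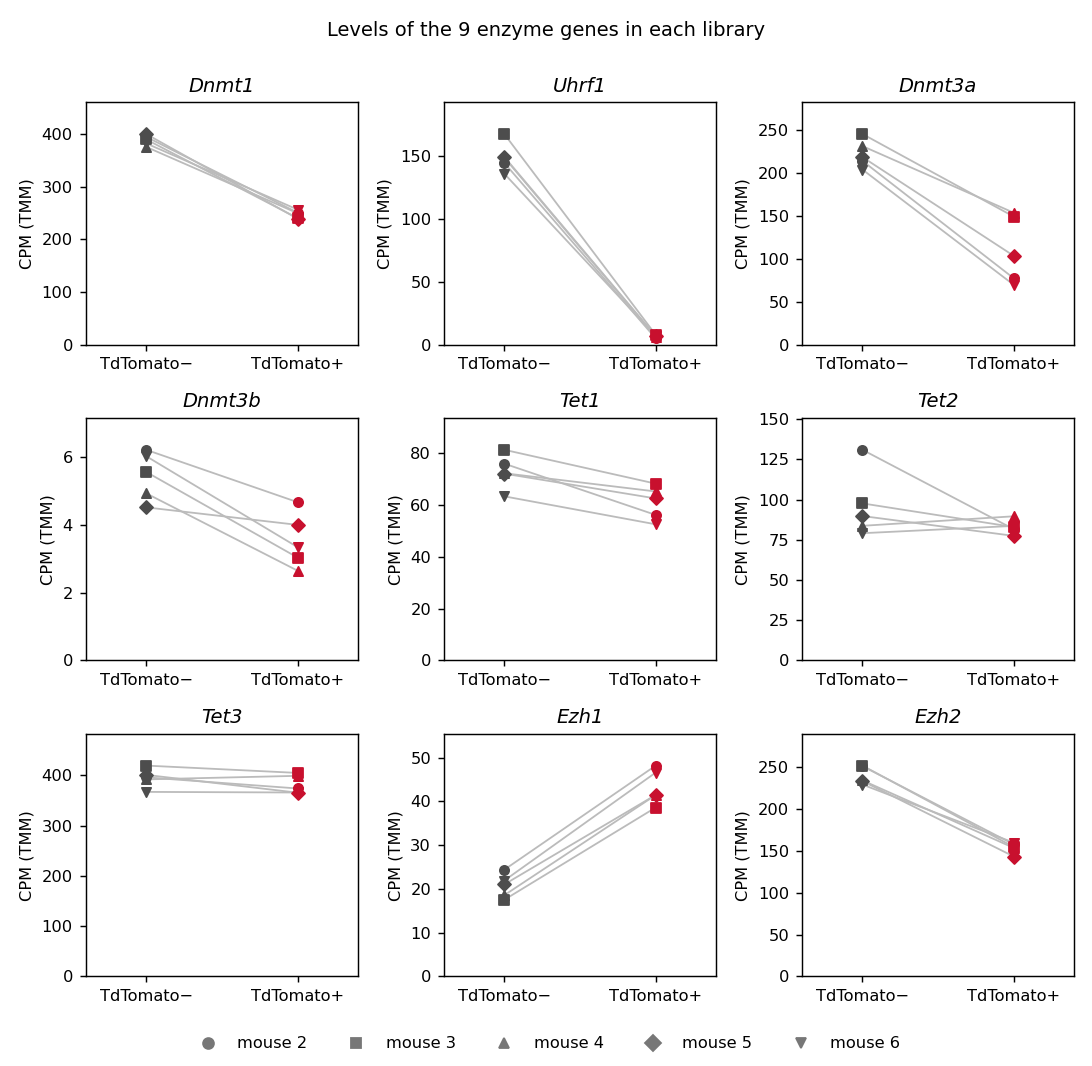
Levels of the 9 genes in each library. The y axis of each panel gives CPM after TMM scaling, starting at 0, each marker is a library, and grey lines join the TdTomato− and TdTomato+ libraries of the same mouse. *Uhrf1* dropped from 136 to 168 CPM to 4.94 to 7.81 CPM, *Ezh1* went up in all 5 mice, the TdTomato+ levels of *Dnmt3a* were spread from 69.5 to 154 CPM, and those of *Tet3* overlapped with the TdTomato− levels.

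The promoters of the members were searched for the E2F-type motif, the element through which E2F factors drive genes of the G1 to S transition, since genes of replication were lower in TdTomato+ cells. The search was made with the fold changes of all members known. The letters searched were TTTCCCGC, TTTCGCGC, TTTGCCGC and TTTGGCGC on both strands, which can overlap one another, and no other motif was searched, in RefSeq promoters of 300 bases (250 before and 50 after a transcription start, GRCm38.p6). All 9 members matched the promoter table. The motif was found in 1 of 3 promoters of *Dnmt1* (chr9:20952574-20952873, minus strand), in 1 of 2 promoters of *Uhrf1* (chr17:56304063-56304362, plus strand) and in the promoter of *Ezh2* (chr6:47594981-47595280, minus strand). These 3 are printed 5′ to 3′ with the motif in capitals, beside that of *Ezh1* (chr11:101226414-101226713, minus strand), the member that rose, in which none of these letters were found:
Dnmt1: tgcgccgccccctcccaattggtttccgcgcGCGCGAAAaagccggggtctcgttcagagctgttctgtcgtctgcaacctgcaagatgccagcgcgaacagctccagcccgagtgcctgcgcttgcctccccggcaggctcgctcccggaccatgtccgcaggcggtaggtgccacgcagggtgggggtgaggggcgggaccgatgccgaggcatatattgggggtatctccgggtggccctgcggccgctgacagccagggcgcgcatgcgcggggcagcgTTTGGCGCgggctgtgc
Uhrf1: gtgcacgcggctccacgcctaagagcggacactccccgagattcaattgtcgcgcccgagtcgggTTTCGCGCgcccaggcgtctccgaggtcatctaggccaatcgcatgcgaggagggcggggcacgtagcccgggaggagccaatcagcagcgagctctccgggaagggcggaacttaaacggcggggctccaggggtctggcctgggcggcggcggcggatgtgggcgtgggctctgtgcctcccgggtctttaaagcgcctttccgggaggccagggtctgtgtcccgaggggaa
Ezh2: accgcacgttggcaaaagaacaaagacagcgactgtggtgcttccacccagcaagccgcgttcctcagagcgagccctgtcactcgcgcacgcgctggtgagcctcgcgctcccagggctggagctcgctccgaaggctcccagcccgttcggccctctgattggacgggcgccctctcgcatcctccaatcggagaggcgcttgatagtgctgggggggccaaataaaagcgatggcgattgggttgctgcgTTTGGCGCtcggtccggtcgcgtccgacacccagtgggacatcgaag
Ezh1: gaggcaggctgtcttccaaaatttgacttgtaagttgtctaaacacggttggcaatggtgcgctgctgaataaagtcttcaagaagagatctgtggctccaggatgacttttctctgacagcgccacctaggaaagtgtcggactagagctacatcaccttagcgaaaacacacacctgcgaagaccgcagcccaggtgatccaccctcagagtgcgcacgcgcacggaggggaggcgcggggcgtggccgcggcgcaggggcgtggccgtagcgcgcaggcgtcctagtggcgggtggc
With the start counted as position 1, the *Dnmt1* window holds GCGCGAAA, the reverse complement of TTTCGCGC, from position −219 and TTTGGCGC from position 34. The *Ezh2* window holds TTTGGCGC from position 4, and the *Uhrf1* window holds TTTCGCGC from position −185. The promoters of *Dnmt3a*, *Dnmt3b* and *Tet1*, which also fell, and of *Tet2* and *Tet3* held no match, so 3 of the 6 members that fell had a match and 3 had none. Of all 32851 promoters of this length, 2.26% held a match, and of the 10560 genes of the count table with a promoter, 4.73% had a match in at least 1. CpG sites, the substrate of the enzymes themselves, numbered 33 in the printed *Dnmt1*, 33 in the printed *Uhrf1*, 31 in the *Ezh2* and 23 in the *Ezh1* window, with a median of 20 over the promoters of genes in the table. The other promoters of *Dnmt1* held 12 and 2 and the other of *Uhrf1* held 12, while *Dnmt3a* had 46, 47 and 18, *Dnmt3b* 30, *Tet1* 17, *Tet2* 57 and *Tet3* 22. A match is a description of the letters in these windows and was not tested as a binding site.

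*Uhrf1* (ENSMUSG00000001228, chr17:56303321-56323486, GRCm38) encodes the ubiquitin ligase that reads hemimethylated CpG and brings DNMT1 to it. It was measured at 145, 168, 149, 150 and 136 CPM in the TdTomato− libraries of mice 2 to 6 and at 4.94, 7.81, 6.31, 6.78 and 6.87 CPM in their TdTomato+ libraries. The TdTomato+ level was 4.38% of the TdTomato− level, a log2 fold change of −4.52 with a standard error (SE) of 0.08 (adjusted p = 1.2e-09). The populations were far apart in every mouse, with differences from −4.85 to −4.29, and 2.07% of all genes had a lower log2 fold change. The TdTomato+ libraries still held 109 to 180 reads of *Uhrf1*, above the floor of 3 counts, which covers counting error only. In the same libraries the 6 interneuron markers kept a median of 4.39% (range 1.91 to 8.29%) of their TdTomato− level. The source of these *Uhrf1* reads was not tested. Replication and mitosis genes fell over a similar range: the median TdTomato+ level of 19 replication genes was 15.4% of the TdTomato− level (range 2.88 to 44.2%), that of 10 mitosis genes was 2.90% (2.11 to 8.90%), and that of the 8 radial glia markers was 5.25%. The part of these cells in the *Uhrf1* result was not tested. In mouse 2, whose TdTomato+ library had the lowest *Uhrf1* level, the summed level of the mitosis genes was also the lowest of the 5 TdTomato+ libraries (33.3 CPM, against 45.9 to 75.3 CPM in the others), but that of the replication genes was not (273.1 CPM, with 271.2 CPM in mouse 4 and 273.9 CPM in mouse 3).

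*Dnmt1* (ENSMUSG00000004099, chr9:20907209-20959888), the maintenance methyltransferase, kept a much larger share of its transcripts than *Uhrf1*. Its levels were 395, 390, 376, 400 and 382 CPM in the TdTomato− libraries of mice 2 to 6. In the TdTomato+ libraries they were 251, 240, 250, 239 and 256 CPM. All 5 TdTomato+ libraries lay below all 5 TdTomato− libraries, at 63.7% of their mean, and the log2 fold change was −0.65 (SE 0.04, adjusted p = 5e-07). *Dnmt1* varied little among libraries of a population: the standard deviation (s.d.) of log2 CPM was 0.04 in TdTomato+ and 0.04 in TdTomato− libraries, with 0.10 and 0.11 as the medians over 9785 well-expressed genes. The fall of *Dnmt1* was smaller than that of every one of the 19 replication genes, the least changed of which, *Prim1*, a DNA primase subunit named here after its value was seen, stood at 44.2% of the TdTomato− level.

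*Dnmt3a* (ENSMUSG00000020661, chr12:3806007-3914443) encodes the de novo methyltransferase that remains expressed in neurons. It was measured at 214, 245, 231, 218 and 204 CPM in the TdTomato− libraries of mice 2 to 6 and at 77.2, 149, 154, 103 and 69.5 CPM in the TdTomato+ libraries. All TdTomato+ values lay below all TdTomato− values, and the log2 fold change was −1.08 (SE 0.14, adjusted p = 7.8e-05). The size of the difference was uneven: it was −1.47, −0.72, −0.59, −1.08 and −1.55 in mice 2 to 6, with mice 3 and 4 high and mice 2 and 6 low. The TdTomato+ libraries of mice 2, 3, 4 and 6 fell apart in the same way over all genes. As chi-square divided by its degrees of freedom, a measure that is about 1 for sampling noise alone, the difference was 4.46 between mice 3 and 4 and 8.6 between mice 2 and 6, but 26.5 to 32.0 between a library of the first pair and a library of the second. The spread of *Dnmt3a* therefore came with a difference between libraries that was not limited to this gene, and leaving out each mouse in turn gave log2 fold changes of −1.20 to −0.95. The TdTomato+ libraries spanned a 2.21-fold range of *Dnmt3a*, and their s.d. of log2 CPM, 0.53, was larger than that of 97.7% of 9785 well-expressed genes. Among TdTomato− libraries the s.d. was 0.10, larger than that of 46.0% of genes. *Tbr1*, a transcription factor of layer VI neurons and the deep-layer marker with the highest TdTomato+ level, was also highest in mice 3 and 4, at 2087 and 2026 CPM, with 1442, 1558 and 1495 CPM in mice 2, 5 and 6. The TdTomato− libraries of mice 3 and 4 were likewise the highest of their population, for *Tbr1* (458.0 and 424.0 CPM, against 240.3 to 344.6 CPM) and for *Dnmt3a* itself, so for these 2 genes mice 3 and 4 were highest in both populations. The summed level of the deep-layer list was 8395 and 8046 CPM in the TdTomato+ libraries of mice 3 and 4, and 7008 to 7687 CPM in the others. In the TdTomato− libraries this sum did not keep the order, with 2555 and 2339 CPM in mice 3 and 4 and 2414 CPM in mouse 6. These values stand beside the *Dnmt3a* levels of the same 5 libraries, and their part in the spread was not tested. *Dnmt3aos*, on the opposite strand, overlaps 0.8% of the exonic length of *Dnmt3a*, and the strand setting of the counts is not given in the sources used here.

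*Dnmt3b* (ENSMUSG00000027478, chr2:153649450-153687730), the de novo methyltransferase of early embryonic cells, was low in both populations. Its TdTomato− levels were 6.22, 5.56, 4.93, 4.52 and 6.03 CPM in mice 2 to 6 (114 to 173 reads), and its TdTomato+ levels were 4.67, 3.04, 2.65, 4.00 and 3.34 CPM (60 to 103 reads). TdTomato+ cells were lower in 5 of 5 mice and the test was passed, with a log2 fold change of −0.63 (SE 0.14, adjusted p = 0.003). The populations overlapped, because the TdTomato+ library of mouse 2 lay above the TdTomato− library of mouse 5.

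The TET genes changed little. *Tet1* (ENSMUSG00000047146, chr10:62804570-62908996) was measured at 75.8, 81.1, 72.1, 72.0 and 63.2 CPM in TdTomato− and at 56.0, 68.1, 65.1, 62.4 and 52.4 CPM in TdTomato+ libraries of mice 2 to 6. Its TdTomato+ level was the lower of the pair in all 5 mice, although the populations overlapped, with a log2 fold change of −0.26 (SE 0.05, adjusted p = 0.0012). *Tet2* (ENSMUSG00000040943, chr3:133463679-133545139) had TdTomato− levels of 131, 97.6, 83.7, 89.7 and 79.1 CPM and TdTomato+ levels of 81.5, 82.9, 89.6, 77.4 and 83.6 CPM. The TdTomato− library of mouse 2 was high, and without it the populations covered nearly the same range. The log2 fold change of *Tet2* was −0.19 (SE 0.10, adjusted p = 0.12), with 3 mice lower and 2 higher. *Tet3* (ENSMUSG00000034832, chr6:83362373-83459084) was measured at 396, 420, 392, 401 and 367 CPM in TdTomato− libraries and at 374, 405, 399, 366 and 366 CPM in TdTomato+ libraries. These values overlapped almost fully, and the log2 fold change was −0.05 (SE 0.04, adjusted p = 0.26). Both calls depended on the scaling: with library size alone as the normalisation, which moved the median log2 fold change of all genes to −0.18, *Tet2* stood at −0.37 (adjusted p = 0.012) and *Tet3* at −0.23 (adjusted p = 0.00053). Under that scaling the split of all genes was 4110 higher and 7123 lower, against 5424 higher and 5632 lower with TMM. *Tet2* also passed when mouse 4 was left out (log2 fold change −0.26, adjusted p = 0.046).

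The 2 catalytic subunits of PRC2 moved in opposite directions. *Ezh2* (ENSMUSG00000029687, chr6:47530139-47595341) was measured at 251.6, 252.2, 235, 234 and 230 CPM in the TdTomato− libraries of mice 2 to 6. In the TdTomato+ libraries it was at 158, 155, 154, 143 and 160 CPM. The populations did not overlap, the TdTomato+ mean was 64.0% of the TdTomato− mean, and the log2 fold change was −0.64 (SE 0.04, adjusted p = 7.8e-07). *Ezh1* (ENSMUSG00000006920, chr11:101191115-101226463) was measured at 24.4, 17.5, 18.5, 21.0 and 21.9 CPM in TdTomato− libraries and at 48.2, 38.6, 41.5, 41.5 and 46.6 CPM in TdTomato+ libraries. Every TdTomato+ library was above every TdTomato− library, with a log2 fold change of 1.07 (SE 0.05, adjusted p = 1.1e-07), or 2.10-fold, and 10.99% of all genes had a higher log2 fold change. *Gm26625*, on the opposite strand, overlaps 2.61% of the exonic length of *Ezh2*, and no annotated gene overlaps the exons of *Ezh1*.

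Levels of different genes were compared per kilobase of exon, since a longer transcript yields more reads. In TdTomato− cells the order of the mean levels was *Dnmt1* (52.7 CPM per kb), *Ezh2* (36.0), *Uhrf1* (35.1), *Tet3* (23.7), *Dnmt3a* (13.4), *Tet2* (5.70), *Tet1* (4.71), *Ezh1* (2.78) and *Dnmt3b* (1.07). The libraries of *Ezh2* and *Uhrf1* overlapped, as did those of *Tet2* and *Tet1*, so their order is not set. In TdTomato+ cells the order was *Dnmt1* (33.5 CPM per kb), *Ezh2* (23.0), *Tet3* (22.9), *Dnmt3a* (6.64), *Ezh1* (5.82), *Tet2* (4.92), *Tet1* (3.93), *Uhrf1* (1.54) and *Dnmt3b* (0.69). Here the neighbours *Ezh2* and *Tet3* overlapped, and so did *Dnmt3a*, *Ezh1* and *Tet2*. *Uhrf1* was thus above *Tet3* and *Dnmt3a* in TdTomato− cells and below all members but *Dnmt3b* in TdTomato+ cells, and *Ezh1* was below *Tet1* in TdTomato− and above it in TdTomato+ cells. With the length of the longest coding transcript in place of all exons, *Ezh2* ranked above *Dnmt1* in both populations (86.2 against 66.2 CPM per kb in TdTomato−, 55.2 against 42.1 CPM per kb in TdTomato+), and the order of the other means was the same. With that length the libraries of *Uhrf1* and *Tet3*, and those of *Tet1* and *Ezh1*, overlapped in TdTomato− cells, while *Ezh2* and *Uhrf1*, and *Tet2* and *Tet1*, were no longer neighbours that overlapped. In TdTomato+ cells *Ezh2* (51.4 to 57.4 CPM per kb) and *Tet3* (33.5 to 37.1 CPM per kb) no longer overlapped with that length.

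**Figure D2:**
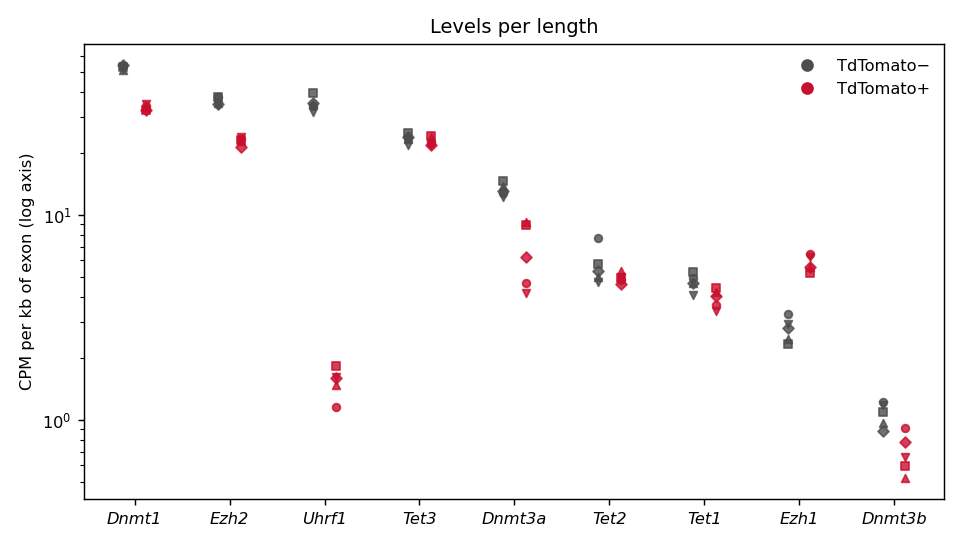
Levels of the members per length. The y axis gives CPM per kb of exon on a log axis, the genes are ordered by their TdTomato− mean, and each marker is a library (grey, TdTomato−; red, TdTomato+; marker shapes stand for mice as in the plot of CPM by library). *Uhrf1* falls from 35.1 to 1.54 CPM per kb, while *Ezh1* rises from 2.78 to 5.82 CPM per kb.

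Ratios of 2 members within a library do not depend on the scaling of the library and were compared between the populations of each mouse. The ratio of *Ezh1* to *Ezh2* was higher in TdTomato+ cells of 5 of 5 mice, by 1.71 ± 0.09 on the log2 scale (mean ± s.d., n = 5). Per kilobase of exon, *Ezh1* made up 7.17 ± 0.91% of *Ezh1* and *Ezh2* transcripts together in TdTomato− cells and 20.1 ± 1.25% in TdTomato+ cells. With the longest coding transcript as the length, these shares were 5.39 ± 0.70% and 15.7 ± 1.03%. *Ezh2* was the main catalytic subunit transcript in both populations with either length. The ratio of *Uhrf1* to *Dnmt1* was lower in 5 of 5 mice, by −3.86 ± 0.22, and that of *Tet1* to *Tet3* was lower in 5 of 5 mice, by −0.21 ± 0.11. *Dnmt1* relative to *Dnmt3a* was higher in 5 of 5 mice, by 0.43 ± 0.45, with a difference near 0 in mice 3 and 4. *Dnmt3b* relative to *Dnmt3a* (0.46 ± 0.62, higher in 3 of 5 mice) and *Tet2* relative to *Tet3* (−0.14 ± 0.28, lower in 3 of 5) had no common direction, and the latter was −0.026 without mouse 2. *Tet3* made up 69.6% of TET transcripts per kilobase of exon in TdTomato− and 72.1% in TdTomato+ cells. *Dnmt1* made up 78.5% (76.9 to 79.5%) and 82.2% (77.3 to 87.8%) of the transcripts of the 3 methyltransferases, with ranges that overlapped. An exact two-sided sign-flip permutation test over 5 pairs cannot give a p below 0.0625, so none of the 6 ratios could reach 0.05. The 4 ratios with the same direction in all mice gave an exact permutation p of 0.0625, the smallest p of this test, or 0.094 after Benjamini-Hochberg adjustment over the 6 ratios. With the pairing set aside, an exact permutation of the 10 libraries gave an adjusted p of 0.016 for *Ezh1* to *Ezh2*, *Uhrf1* to *Dnmt1* and *Tet1* to *Tet3*. Their unadjusted p by this permutation was 0.0079, the smallest it can give. The same exact permutation gave an adjusted p of 0.21 for *Dnmt1* to *Dnmt3a*, and of 0.29 for *Dnmt3b* to *Dnmt3a* and for *Tet2* to *Tet3*.

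**Figure D3:**
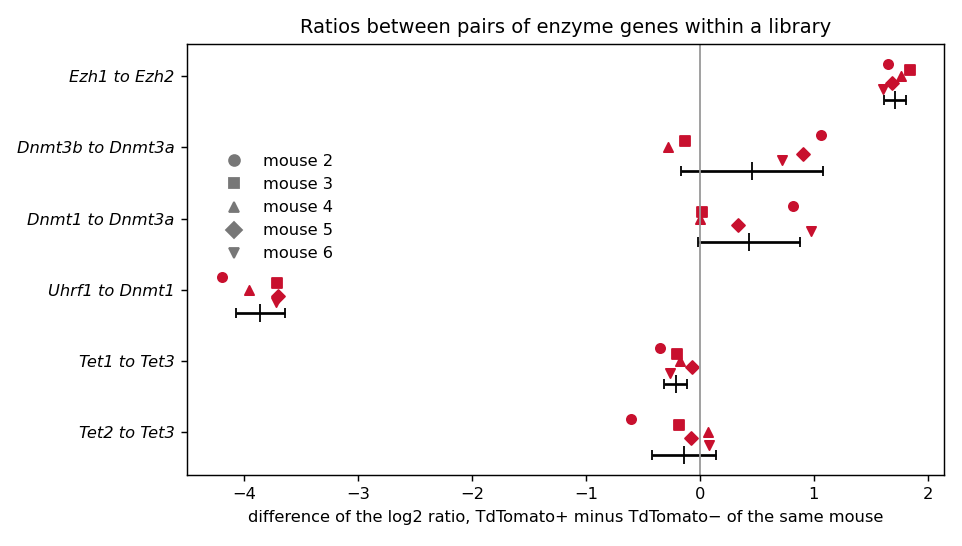
Differences of within-library ratios. The x axis gives the log2 ratio of the named pair in the TdTomato+ library minus that in the TdTomato− library of the same mouse, each red marker is a mouse, and the black mark and bar under each row are the mean and s.d. of 5 mice. *Ezh1* to *Ezh2* lies near 1.71 in all mice, *Uhrf1* to *Dnmt1* near −3.86, and the 2 ratios over *Dnmt3a* are spread, with mice 3 and 4 lowest.

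The partners of the enzymes were counted from lists written for this comparison, as a description with no test of a list, and each count stands against the 37.9% of all genes called higher and the 39.4% called lower. Of 9 measured partners of the DNA methyltransferases, 4 were lower, 0 higher and 5 not called, with a median log2 fold change of −0.18. *Cdca7*, which brings the remodeller HELLS to chromatin, had the largest decrease of this list among well-expressed genes (log2 fold change −5.04, SE 0.15, adjusted p = 6.8e-09). *Hells*, named here for its role, fell as well (−2.94, SE 0.12, adjusted p = 4.5e-08). *Uhrf2*, the paralogue of *Uhrf1*, did not pass the test, with 103 ± 7.67 CPM in the TdTomato− and 105 ± 2.61 CPM in the TdTomato+ libraries (mean ± s.d., n = 5). Under scaling by library size alone, all 9 of these genes were called lower.

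Of 11 genes that act with or after the TET enzymes, 4 were higher, 6 lower and 1 not called (median −0.40). The largest increase among well-expressed genes was that of *Ogt*, the O-GlcNAc transferase that binds TET proteins (log2 fold change 0.42, SE 0.10, adjusted p = 0.003). Its populations overlapped, at 275.5 to 454.5 CPM in TdTomato− and 422.2 to 453.1 CPM in TdTomato+ libraries. In TdTomato− libraries the summed level of this list was 793.8 CPM in mouse 2 and 633.3 to 684.7 CPM in the others. The largest decrease among well-expressed genes was that of *Gadd45g*, a growth-arrest gene linked to DNA demethylation (−2.54, SE 0.16, adjusted p = 6.5e-07). Among less expressed genes of the list, *Neil3* fell by more (−4.95, SE 0.15) and *Gadd45b* rose by more than *Ogt* (1.04, SE 0.20). *Tdg*, the glycosylase that removes the bases produced by TET oxidation, named here for its role, was also lower (−0.40, SE 0.06, adjusted p = 0.00016). Of 8 genes of the methyl-CpG binding protein families, 2 were higher, 3 lower and 3 not called (median −0.06). *Zbtb38* had the largest increase (0.68, SE 0.04, adjusted p = 6.9e-07) and *Mbd3*, of the NuRD complex, the largest decrease (−0.85, SE 0.05, adjusted p = 2.3e-07).

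Of the other 12 subunits of PRC2, 7 were lower, 4 higher and 1 not called (median −0.56, against −0.01 for all genes). *Eed* (log2 fold change −0.78, SE 0.05, adjusted p = 9.5e-07) and *Suz12* (−0.74, SE 0.08, adjusted p = 2.1e-05), the core subunits without which PRC2 is inactive, named here for their role, were lower by about as much as *Ezh2*. The largest decrease among well-expressed genes was that of *Aebp2* (−1.16, SE 0.05, adjusted p = 3.7e-08), a subunit of the PRC2.2 form, and the largest increase that of *Lcorl* (1.08, SE 0.12, adjusted p = 4.2e-05), which encodes a subunit of the PRC2.1 form. *Jarid2*, the other PRC2.2 subunit, did not pass the test (log2 fold change 0.03, SE 0.04, adjusted p = 0.5). The TdTomato+ levels of *Lcorl* were spread from 48.1 to 129.5 CPM, with TdTomato− levels of 30.6 to 47.4 CPM. *Phf1*, among the subunits called higher, has 39.3% of its exonic length overlapped by genes on the opposite strand. The H3K27 demethylases *Kdm6a* (56.2 ± 10.9 and 56.3 ± 6.70 CPM in TdTomato− and TdTomato+ cells) and *Kdm6b* (435 ± 20.5 and 419 ± 11.4 CPM) were not called with TMM, and both were called lower with library size alone. Of 19 PRC1 subunits, the complex that acts with PRC2, 6 were higher, 5 lower and 8 not called, and their median of 0.15 turned to −0.03 under library size alone. *Cbx2*, a chromobox subunit, had the largest decrease of these among well-expressed genes (−1.30, SE 0.07, adjusted p = 1.6e-07), and *Phc3* the largest increase (0.57, SE 0.06, adjusted p = 2.1e-05). Larger decreases were found among less expressed genes, in *Pcgf5* of PRC1 (−4.56, SE 0.32) and *Phf19* of PRC2 (−4.12, SE 0.15). Under library size alone the counts of higher and lower genes were 3 and 6 for the TET partners, 2 and 6 for the methyl-CpG binding proteins, 3 and 8 for the other PRC2 subunits and 4 and 8 for PRC1.

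All 19 genes of DNA replication were lower (median −2.70), with the largest decrease in *Mcm3*, a subunit of the replicative helicase (−5.13, SE 0.10, adjusted p = 1.6e-09). All 10 mitosis genes were lower too (median −5.11), with the largest decrease in *Cdk1*, the mitotic kinase (−5.57, SE 0.22, adjusted p = 2.9e-08). Of the members, *Uhrf1* lay within the range of these 2 lists, and *Dnmt1* and *Ezh2* lay outside it, with smaller decreases.

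**Figure D4:**
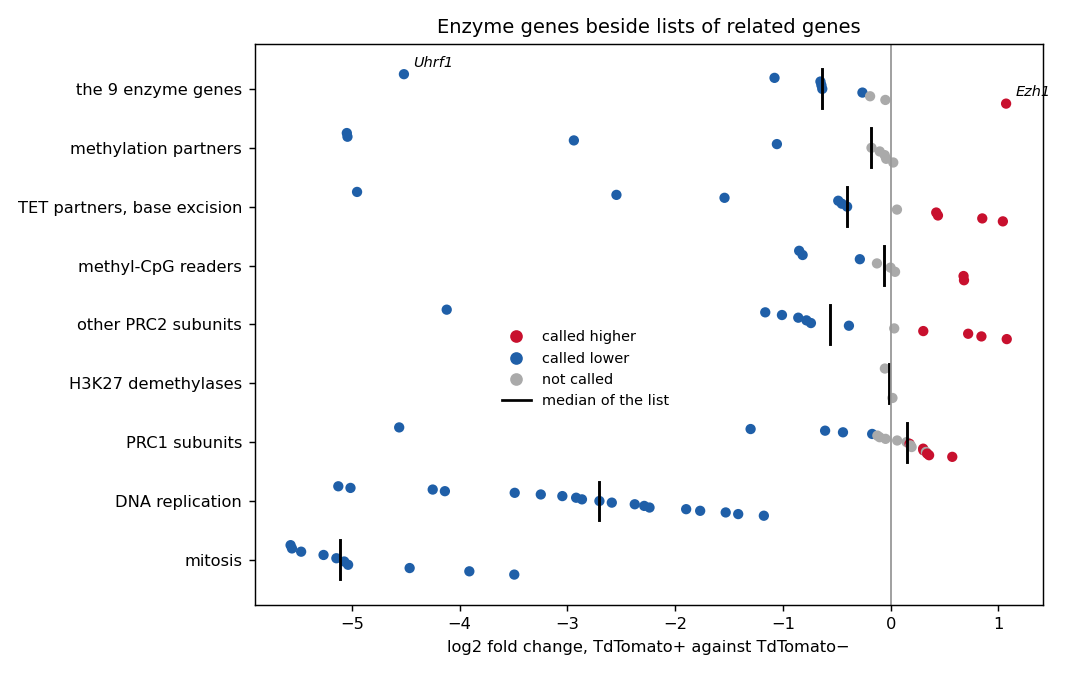
Log2 fold changes of the members and of lists of related genes. The x axis gives the log2 fold change of TdTomato+ against TdTomato− cells, each point is a gene, colours give the call at an adjusted p of 0.05 or less, and black bars are list medians. *Uhrf1* (−4.52) lies among the replication and mitosis genes, while the other members that fell lie between −1.08 and −0.26.

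The genes whose pattern over the 10 libraries was most like that of each member were found by the root mean square (r.m.s.) difference of log2 CPM centred on its mean, among 9781 well-expressed genes. This measure includes the difference between the populations, so a near gene has a similar log2 fold change. *Ncaph* stood at −4.55 and *Uhrf1* at −4.52, and *Nup133* at −0.63 and *Dnmt1* at −0.65. Shared regulation was not tested. Nearest to *Uhrf1* were *Ncaph*, a condensin subunit (r.m.s. difference 0.08), and *Ccna2*, cyclin A2 (0.11). Nearest to *Dnmt1* were *Nup133*, a nuclear pore protein (0.03), and *E2f4*, an E2F factor (0.04), and nearest to *Ezh2* were *Sart3* (0.05) and *Dnmt1* itself (0.05). *Ezh1* was most like *Camsap3*, a microtubule minus-end protein (0.05), and *Fcho1* (0.06). The uneven pattern of *Dnmt3a* was matched most closely by *Trim62* (0.08), which stood at 12.5, 22.6, 21.6, 16.7 and 11.3 CPM in the TdTomato+ libraries of mice 2 to 6, with mice 3 and 4 high as for *Dnmt3a*, and by *Rhbdl3* (0.15). *Tet1* was nearest to *Man1a2* (0.06) and *Cbx5* (0.06), *Tet2* to *Srek1* (0.09) and *Atp11a* (0.09), *Tet3* to *Ttc37* (0.04) and *Eif5b* (0.04), and the low *Dnmt3b* to *Nr2f6* (0.14) and *Ino80b* (0.15).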

How the data were processed

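Counts of reads per gene, as deposited by the authors, were used for 10 libraries from TdTomato+ and TdTomato− cells of 5 mice. The authors trimmed reads with Trim Galore, aligned them to GRCm38 with STAR 2.4.2a, kept uniquely mapped reads with at most 1 mismatch and counted them in STAR. The labels and the methods name different library kits and read lengths, and the annotation release and strand setting are not given in the sources used here. All 14300 genes of the table were fitted (filterByExpr removed none) with edgeR 4.0.16 in R 4.3.3 (TMM, glmQLFit, glmQLFTest, mouse as a block), adjusted by Benjamini-Hochberg over all genes. Results depending on other processing (DESeq2 1.42.0, other normalisations, filters, thresholds and each mouse left out) are given at the end. CPM used TMM, log2 CPM a prior count of 2, and ratios 2 added counts. Genes with a mean log2 CPM of at least 3 over all 10 libraries are called well-expressed, which leaves out some genes nearly lost from TdTomato+ cells.

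Whether the mouse numbers pair the libraries was checked on their deviations from the population means. Libraries of the same mouse correlated across genes at 0.186 to 0.316 in all 5 mice, and libraries of different mice at −0.312 to 0.212. The ranges overlapped, because mouse 5 stood at 0.186. For that mouse the check does not settle the pairing, which rests on the shared number. Libraries of a population differed by more than sampling noise (chi-square per degree of freedom 4.46 to 32.0). Every member had at least 60 reads in every library, and floors cover counting error only.

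Symbols, positions and exonic lengths came from GENCODE M21 (GRCm38), which matched 14271 identifiers, and promoters from RefSeq (GRCm38.p6). Members, lists and tests were chosen with earlier results of these data known. The text names every member and its 2 nearest genes. Of each list of related genes it names the largest called increase and decrease among well-expressed genes, and all genes of lists with at most 2 genes. Of the cell type markers it names the deep-layer marker with the highest TdTomato+ level and those that mark cortical glutamatergic neurons more widely. Genes named for their role, after their value was seen, for a larger change at a lower level or for a limit of their list stand outside that rule. The motif search and the length of the longest coding transcript were chosen after the data were seen. Protein sequences were not used here.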

Additional observations from a re-analysis of the deposited data

Results flagged for a closer look

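Of 30 sets of 5 libraries examined for a library far from the others (each member and each ratio in each population), 1 stood apart, and chance gives about 1 in 20. The ratio of *Tet2* to *Tet3* among TdTomato− libraries was highest in mouse 2, with a gap of 0.803 of the whole range to its nearest neighbour, above the Dixon critical value of 0.71. *Tet2* stood at 131 CPM in that library and at 79.1 to 97.6 CPM in the other 4 TdTomato− libraries, while *Tet3* stood at 396 CPM, within its range of 367 to 420 CPM. Without mouse 2 the difference of this ratio between the populations was −0.026, against −0.14 with all mice, and the log2 fold change of *Tet2* was −0.068 (edgeR adjusted p = 0.41), against −0.19 with all mice.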

How the results depend on the processing

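The fits with RLE or upper quartile scaling, DESeq2, other filters, robust estimation or without the replicate block left every member on its side of the threshold and in its direction. Without the replicate block 10674 genes passed, and the ratios of *Ezh1* to *Ezh2* (1.71), *Uhrf1* to *Dnmt1* (−3.86) and *Tet1* to *Tet3* (−0.21) had an adjusted p of 0.016 by exact permutation, where the paired test is too small to pass. Leaving out the block changed no call of a member and lowered the number of genes called from 11056. DESeq2 called 10215 genes.

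Tested against a log2 fold change of 1 (TREAT), *Uhrf1* alone still passed, so 0 members were higher and 1 was lower, and 3193 genes passed (1229 higher, 1964 lower). The estimates that no longer passed were those of *Dnmt1* (−0.65), *Dnmt3a* (−1.08), *Dnmt3b* (−0.63), *Tet1* (−0.26), *Ezh1* (1.07) and *Ezh2* (−0.64). *Ezh1* and *Dnmt3a* lie just past 1 in size but were not distinguished from it (adjusted p = 0.13 and 0.45), and the other 4 lie under it. With library size alone, *Tet2* (−0.37) and *Tet3* (−0.23) passed, so 8 members were lower, and the median of all genes was −0.18. Leaving out each mouse in turn gave −0.26 to −0.068 for *Tet2*, which passed without mouse 4, −1.20 to −0.95 for *Dnmt3a*, 6 to 7 members lower and 10409 to 10771 genes called. Some levels per length moved beyond their s.d. under library size alone or with the longest coding transcript as the length. Pools of cells of unknown makeup limit every difference, and *Dnmt3b* rests on 60 to 173 reads a library.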
